A study of Mus musculus with 6 samples.

Results

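Antibodies are built from a heavy chain and a light chain, and the light chain is of the kappa or the lambda type. A B cell joins a variable and a joining segment at one light chain locus and transcribes them together with the constant gene downstream, so the constant genes Igkc (kappa) and Iglc1, Iglc2 and Iglc3 (lambda) report the light chain RNA of each type. In the mouse kappa predominates, the lambda locus has few variable genes (Iglv1, Iglv2 and Iglv3), and plasma cells, the antibody-secreting end stage of the B cell lineage, carry light chain RNA in very large amounts. The 7 genes described here are these kappa constant, lambda constant and lambda variable genes, chosen by their names among 33679 genes of the deposited table, and all 7 were found.

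RNA was extracted from kidneys of mice after unilateral ureteral obstruction, a surgical block of urine outflow that leads to fibrosis of the kidney. One group carried a Cd248 knockout (Cd248 KO, below KO) and the other was wild type (WT). By the labels all samples come from obstructed kidneys, and no unobstructed kidney was among the samples. Values were available for Cd248 KO replicate 1 and for wild type replicates 1, 2 and 3 (WT libraries 1, 2 and 3), and Cd248 KO replicates 2 and 3 were not analysed here. The labels' protocols describe libraries from pooled RNA and give neither age, strain nor the cells in which the deletion acts, and they do not say whether replicates are separate animals, so the spread between libraries may be technical. Every knockout value is therefore a single measurement, and errors are those of the WT libraries.

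Cd248, the deleted gene, was listed at 0 FPKM (fragments scaled by transcript length and by mapped fragments) in the KO library, against 9.03, 9.57 and 8.78 FPKM in WT libraries 1, 2 and 3. Between 14535 and 14820 genes reached 1 FPKM in a library. Kidney tubule and glomerulus genes, 10 of 10 present, summed to 752 FPKM in the KO library and to 499, 869 and 847 FPKM in WT libraries 1, 2 and 3, so the tissue label held in all of them. Umod, the abundant secreted protein of the thick ascending limb, was at 473 FPKM in the KO library and between 340 and 640 FPKM in WT libraries. Across genes, log2(FPKM + 1) of the KO library correlated with that of the WT libraries at 0.932 to 0.940, and WT libraries with each other at 0.975 to 0.978. Immunoglobulin genes held 5.99% of all FPKM in the KO library and between 0.113% and 0.202% in WT libraries. Read depth is unknown.

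Igkc lies on chromosome 6 (GRCm38, 70726435 to 70726966, plus strand) and is a single exon of 532 bases, 320 of them coding. The lambda genes lie on the minus strand of chromosome 16: Iglc1 at 19061618 to 19062071, Iglc3 at 19065230 to 19065681, Iglv1 at 19085017 to 19085500, Iglc2 at 19198396 to 19200351, Iglv3 at 19241207 to 19241690 and Iglv2 at 19260401 to 19260859. The sequences below, from the GENCODE M21 transcripts of GRCm38, are shown because they determine which members a short read can tell apart. The first set is a matching stretch of 120 coding bases of the lambda constant genes, with the bases that differ from Iglc2 in capitals, 5′ to 3′ on the coding strand (Iglc2 chr16:19198674-19198793, Iglc3 chr16:19065503-19065622, Iglc1 chr16:19061893-19062012).
Iglc2: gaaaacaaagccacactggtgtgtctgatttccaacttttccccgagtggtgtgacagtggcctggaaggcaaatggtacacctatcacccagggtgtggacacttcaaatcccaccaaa
Iglc3: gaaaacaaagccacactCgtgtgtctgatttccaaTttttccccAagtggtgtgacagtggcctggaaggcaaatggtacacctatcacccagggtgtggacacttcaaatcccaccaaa
Iglc1: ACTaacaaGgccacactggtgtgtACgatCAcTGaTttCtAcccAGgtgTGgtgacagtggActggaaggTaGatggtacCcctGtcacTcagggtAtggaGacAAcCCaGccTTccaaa

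Iglc3 differed from Iglc2 at 3 of these bases and Iglc1 at 32. Over the aligned coding sequence Iglc2 and Iglc3 were identical at 96.5% of bases, with a longest shared run of 79 bases, and Iglc1 was identical to Iglc2 at 74.8% and to Iglc3 at 75.4%. Of the stretches of 50 bases in its transcript, Iglc2 shared 10.5% with another gene (Iglc3), and Iglc3 shared 22.3% (with Iglc2 and with 2010309G21Rik, an antisense gene of which an exon overlaps Iglc3). Iglc1 and Igkc shared none at this length. Values of Iglc2 and Iglc3 are therefore uncertain towards each other, while those of Igkc and Iglc1 are not affected in this way. The sources used here do not say whether fragments were counted by strand, so reads of the antisense gene could fall into Iglc3.

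The same holds for a pair of the variable genes. The last 120 coding bases of Iglv1 (chr16:19085017-19085136), those of Iglv2 (chr16:19260401-19260520) and the aligned 127 bases of Iglv3 (chr16:19241213-19241339), all 5′ to 3′ on the minus strand, are given with the bases that differ from Iglv1 in capitals.
Iglv1: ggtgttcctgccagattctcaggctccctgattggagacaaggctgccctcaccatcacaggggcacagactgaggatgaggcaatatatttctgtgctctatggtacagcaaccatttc
Iglv2: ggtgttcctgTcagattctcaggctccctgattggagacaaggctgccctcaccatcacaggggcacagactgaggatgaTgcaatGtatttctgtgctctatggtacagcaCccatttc
Iglv3: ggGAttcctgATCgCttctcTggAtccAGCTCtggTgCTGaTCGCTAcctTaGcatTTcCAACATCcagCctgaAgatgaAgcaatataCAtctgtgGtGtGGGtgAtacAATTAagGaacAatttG

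Iglv1 and Iglv2 were identical at 96.9% of their 351 coding bases and shared 22.2% and 24.0% of their 50-base stretches. Iglv3 was identical to Iglv1 at 56.6% of aligned bases and shared no such stretch with another gene. These are germline sequences of the reference strain, and expressed variable regions can carry somatic mutations that alignment handles less well. A stretch of the Igkc constant region (coding bases 61 to 180; chr6:70726495-70726614, plus strand) is shown for comparison, since no run of more than 8 bases was shared with any lambda constant gene.
Igkc: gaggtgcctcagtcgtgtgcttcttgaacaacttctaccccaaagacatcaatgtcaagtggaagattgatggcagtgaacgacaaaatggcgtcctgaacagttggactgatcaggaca

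The comparison addresses light chain RNA in obstructed kidneys with and without Cd248. All 7 genes were higher in the KO library than in every WT library. Igkc was 46.1 times the wild type mean, Iglc1 83.8 times and Iglv1 65.0 times, while Iglc2 and Iglc3, the other lambda constant genes, were 26.8 and 15.1 times the wild type mean. The kappa to lambda balance over the constant genes, in contrast, was inside the wild type range. In a bulk sample, more antibody-producing cells and more light chain RNA per cell cannot be told apart.

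Igkc, the constant region of all kappa chains, was at 4153 FPKM in the KO library, against 119, 89.2 and 61.7 FPKM in WT libraries 1, 2 and 3. The knockout value was 34.8 times the highest WT library, and the WT libraries differed among themselves by 1.94 times. Igkc ranked 9th by FPKM among all genes of the KO library, and between 205th and 470th in the WT libraries. On the log2(FPKM + 1) scale, which understates the change of low genes, the difference was 5.56 (SE 0.39; 95% confidence interval 4.52 to 6.60; limma adjusted p = 0.0190).

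Iglc1, the constant gene of the lambda 1 chain, was at 203 FPKM in the KO library, against 2.90, 2.25 and 2.10 FPKM in WT libraries 1, 2 and 3. The difference was 5.90 (SE 0.16; 95% confidence interval 5.47 to 6.33; limma adjusted p = 0.0030), and the groups did not overlap. Iglc2, the constant gene of the lambda 2 chain, was at 32.8 FPKM in the KO library, against 1.93, 0.93 and 0.81 FPKM in WT libraries 1, 2 and 3. Its difference was 3.96 (SE 0.31; limma adjusted p = 0.0279), and WT library 1 stood above the other WT libraries. Iglc3, the constant gene of the lambda 3 chain, was at 16.4 FPKM in the KO library, against 1.06, 1.12 and 1.07 FPKM in WT libraries 1, 2 and 3. WT levels of Iglc3 were nearly equal, and its difference was 3.06 (SE 0.10; limma adjusted p = 0.0032).

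Iglv1, the variable gene mostly joined to the Iglc1 cluster, was at 406 FPKM in the KO library, against 8.08, 5.80 and 4.89 FPKM in WT libraries 1, 2 and 3 (difference 5.84, SE 0.26; limma adjusted p = 0.0067). Iglv2, mostly joined to the Iglc2 cluster, was at 26.4 FPKM in the KO library, against 0.34 FPKM in WT library 1 and a listing at 0 in WT libraries 2 and 3 (difference 4.64, SE 0.22). Iglv3, a variable gene before Iglc2, was at 10.7 FPKM in the KO library, against 0.61, 0.49 and 0.25 FPKM in WT libraries 1, 2 and 3 (difference 3.02, SE 0.18). Iglv2 and Iglv3 entered the test through the KO library, since their wild type means lay below the 0.5 FPKM that the filter asked of the mean over all libraries. Their direction was thus fixed by the filter, so their p in the main fit is not given. Their calls and their p under other settings, like the counts over all members given next, are a description.

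**Figure D1:**
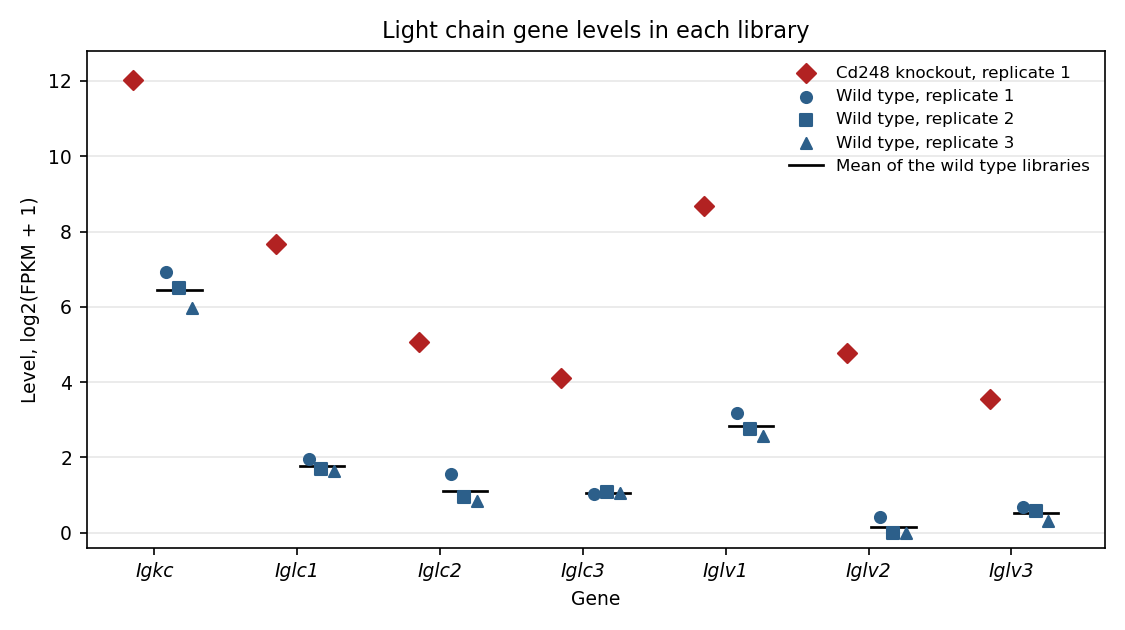
Level of each light chain gene on the log2(FPKM + 1) scale (vertical axis) in each library, with the KO library as a red diamond, the WT libraries as blue symbols and the wild type mean as a black line. The KO library lies above all WT libraries for each of the 7 genes, with Igkc at 4153 FPKM against 61.7 to 119 FPKM in wild type.

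In the test over all genes, 7 of 7 members were higher in the KO library, where 0.64% of the 16871 tested genes were called higher (108 genes), 0.083% lower (14 genes) and 0.723% in either direction (122 genes). Of all tested genes, 28% lay above every WT library, as did 7 of 7 members, and 31.2% lay below every one, as did 0 of 7 members. The median difference was 4.64 over the members, which is the value of Iglv2, and -0.01 over all tested genes. Iglv2 and Iglv3 entered the test through the KO library, so the counts and the median over all 7 members are a description. Of the other 5 members, 5 were called higher. In the authors' deposited table, 4 of the members (Igkc, Iglc1, Iglc2 and Iglv1) were marked as significant, among 0.781% of all genes so marked in either direction, and Iglc3, Iglv2 and Iglv3 were given a q-value of 1.0 there, with ratios of 15.1, 230.1 and 23.9.

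The calls of Iglc1 and Iglc3 held under each of the 11 alternatives tried, with adjusted p up to 0.0329 and 0.0417. That of Igkc was lost without WT library 1, 2 or 3 (limma adjusted p between 0.0689 and 0.126), and likewise that of Iglv3 (between 0.0589 and 0.0843). The call of Iglc2 did not hold when WT library 2 (0.131) or 3 (0.157) was left out, nor that of Iglv1 without WT library 2 (0.0508) or 3 (0.0518), nor that of Iglv2 without WT library 3 (0.0770). Without WT library 1, 2 or 3, 5, 3 and 2 of the 7 members were called. Igkc also missed the threshold with no filter (limma adjusted p = 0.0832) and with the other immunoglobulin genes left out (0.0664), as did Iglc2 (0.0953 and 0.0939) and Iglv3 (0.0628 and 0.0513). With 0.1 FPKM added in place of 1, Iglc2 (0.101), Iglv2 (0.188) and Iglv3 (0.101) missed it. The differences without 1 WT library stayed between 5.32 and 5.79 for Igkc and between 5.84 and 6.0 for Iglc1. For each member the exact permutation test over the 4 libraries gave p = 0.25, which is its lower limit with 1 KO library and 3 WT libraries.

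In the KO library the order of levels, from high to low, was Igkc, Iglv1, Iglc1, Iglc2, Iglv2, Iglc3 and Iglv3. In the WT libraries Igkc, Iglv1 and Iglc1 also held the first places, and none of their ranges overlapped. Iglc2 (0.81 to 1.93 FPKM) and Iglc3 (1.06 to 1.12 FPKM) overlapped there, as did Iglv3 (0.25 to 0.61 FPKM) and Iglv2 (0 to 0.34 FPKM), so their order in wild type is not settled. Within the wild type group every member except Iglc3 was highest in WT library 1. The summed T cell genes were also highest in that library, at 53.5 FPKM against 42.1 and 37.1 FPKM in WT libraries 2 and 3, and the summed kidney genes lowest, and the part of either in these levels was not tested.

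The ratio of Igkc to the sum of the lambda constant genes was 16.5 in the KO library, against 20.3, 20.7 and 15.5 in WT libraries 1, 2 and 3. The wild type mean was 18.8 ± 2.90 (SD, n = 3), and the knockout value lay between those of WT libraries 3 and 1. On the log2 scale the knockout ratio differed from the wild type mean by -0.18, with a wild type SD of 0.23 (exact permutation test, two-sided, p = 1.0). Lambda constant FPKM were 5.71% of all light chain constant FPKM in the KO library, against 4.70%, 4.60% and 6.06% in WT libraries 1, 2 and 3. Without WT library 3 the KO ratio lay below both remaining WT libraries (log2 difference -0.31). The smallest p that the exact permutation test can give with 1 KO and 3 WT libraries is 0.25, so it could not establish a shift. The values show only that the knockout ratio over the summed constant genes lay inside the range of the 3 WT libraries.

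Within the lambda class, the share of each constant gene in the KO library lay outside the WT values. Iglc1 made up 80.5% of the lambda constant FPKM in the KO library, against 49.2%, 52.3% and 52.8% in WT libraries 1, 2 and 3 (exact permutation p = 0.25, the smallest possible). Iglc2 made up 13.0% in the KO library, against 32.8%, 21.6% and 20.3% in WT libraries 1, 2 and 3 (exact permutation p = 0.50). Iglc3 made up 6.51% in the KO library, against 18.0%, 26.1% and 26.9% in WT libraries 1, 2 and 3 (exact permutation p = 0.25). The WT libraries lay within 3.52 percentage points of each other for Iglc1, and the KO library stood 29.0 percentage points above their mean.

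As a result the ratio depends on the lambda gene taken. Igkc over Iglc1 alone was 20.5 in the KO library, against 41.2, 39.6 and 29.4 in WT libraries 1, 2 and 3, a log2 difference of -0.83 with a wild type SD of 0.27 (exact permutation p = 0.25, the smallest possible). Igkc over Iglc2 and Iglc3 summed was 84.5 in the KO library, against 39.96, 43.5 and 32.8 in WT libraries 1, 2 and 3, a log2 difference of 1.13 in the opposite direction (exact permutation p = 0.25). The division of reads between Iglc2 and Iglc3 does not enter either ratio, since their sum is used, but low wild type values of about 1 FPKM and any antisense reads in Iglc3 do.

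The variable genes gave a lower kappa to lambda ratio in the KO library. The sum of 97 Igkv genes over that of Iglv1, Iglv2 and Iglv3 was 10.1 in the KO library, against 16, 18.9 and 15.04 in WT libraries 1, 2 and 3, a log2 difference of -0.71 (exact permutation p = 0.25). This measure was added after the data were seen. Iglv1 held 91.6% of the lambda variable FPKM in the KO library, inside the wild type values of 89.5%, 92.2% and 95.1%. Lambda variable over lambda constant FPKM was 1.76 in the KO library, above the wild type values of 1.53, 1.46 and 1.29. Iglv1 over Iglc1 alone went the other way, at 2.01 in the KO library, below the wild type values of 2.79, 2.58 and 2.33. Kappa variable over kappa constant FPKM was 1.08 in the KO library, below the wild type values of 1.21, 1.33 and 1.25. Many Igkv genes resemble each other and may share reads, so only their sum is used in these ratios. Values of single Igkv genes given below are uncertain for the same reason.

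**Figure D2:**
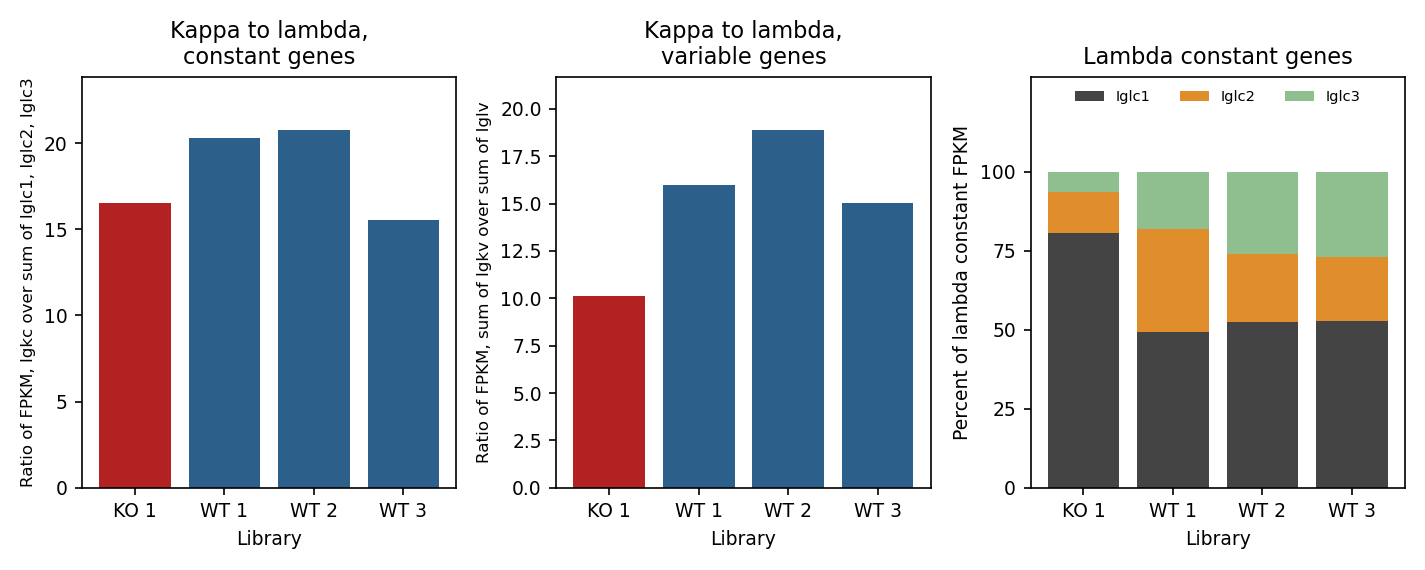
Kappa to lambda ratio of FPKM over constant genes (left) and variable genes (middle), and the percent of lambda constant FPKM from Iglc1, Iglc2 and Iglc3 (right), with 1 bar per library, knockout (KO) first and wild type (WT) after it. The constant gene ratio of 16.5 lies inside the wild type range of 15.5 to 20.7, the variable gene ratio of 10.1 lies below all WT libraries, and Iglc1 takes 80.5% in the KO library against 49.2% to 52.8% in wild type.

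Along the lambda locus, the highest levels in the KO library were those of Iglv1, Iglj1 and Iglc1. The joining segment Iglj1, which sits before Iglc1, was at 315 FPKM in the KO library, against 3.91, 3.69 and 4.02 FPKM in WT libraries 1, 2 and 3 (difference 6.02, SE 0.09; limma adjusted p = 0.0011). Iglj3, before Iglc3, was at 13.7 FPKM in the KO library, against 1.02, 2.37 and 1.29 FPKM in WT libraries 1, 2 and 3 (difference 2.56; limma adjusted p = 0.0980). Iglj2 lies inside an exon of an Iglc2 transcript, so their reads cannot be told apart, and it was at 3.03 FPKM in the KO library and 0.01 FPKM in each WT library. Iglc4 was listed at 0 in all 4 libraries. Joining segments are very short features, and their FPKM are uncertain.

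**Figure D3:**
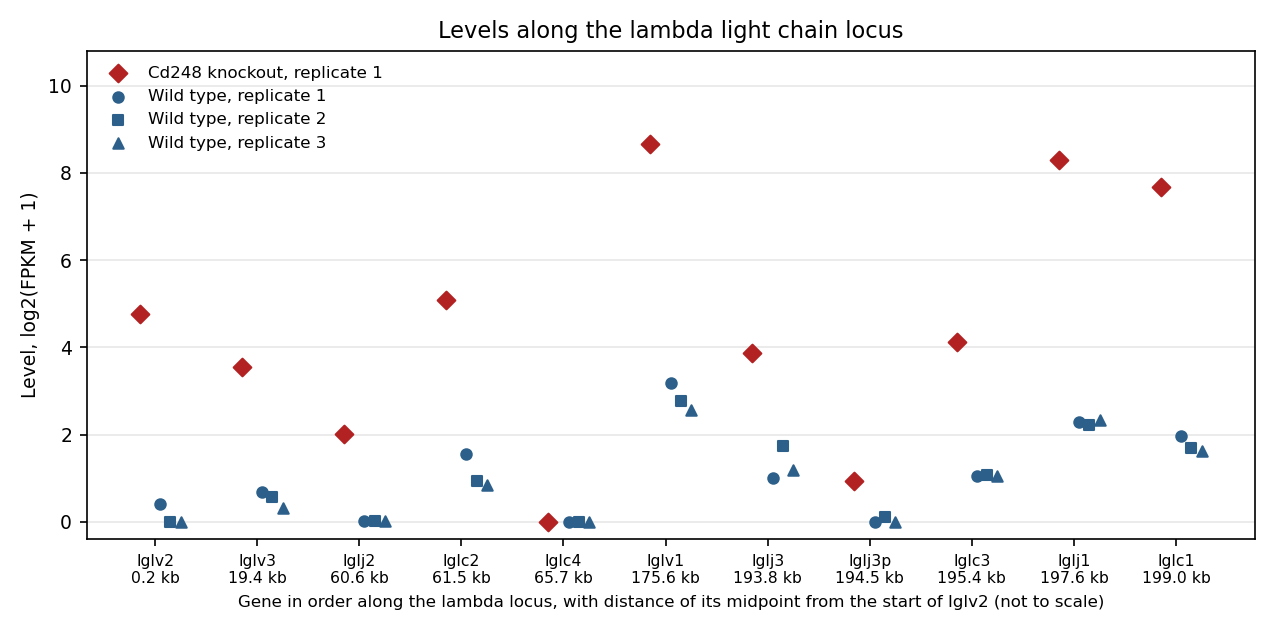
Levels on the log2(FPKM + 1) scale (vertical axis) of lambda genes in their order along the locus, labelled with the distance in kb from the start of Iglv2, for the KO library (red diamonds) and the WT libraries (blue symbols). Iglv1, Iglj1 and Iglc1 reach 406, 315 and 203 FPKM in the KO library, while Iglc4 is listed at 0 in every library.

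The heavy chain constant genes, which pair with the light chains, were higher as well, and unevenly. Of the 8 genes, 7 were tested, 6 were higher, 0 were lower and Ighd (IgD) did not pass. Ighg1 and Ighg3, with wild type means under 0.5 FPKM, entered the test through the KO library, so their direction was fixed by the filter. Of the other 5 tested genes, 4 were higher, where 0.64% of all tested genes were. Igha (IgA) was at 1042 FPKM in the KO library, against 35.1, 25.1 and 13.7 FPKM in WT libraries 1, 2 and 3, so that Igkc over Igha was 3.99 in the KO library and between 3.40 and 4.50 in wild type (exact permutation p = 1.0). Ighm (IgM) was at 95.7 FPKM in the KO library, against 19.8, 21.2 and 15.3 FPKM in WT libraries 1, 2 and 3 (difference 2.30; limma adjusted p = 0.0332), and Igkc over Ighm was 43.4 in the KO library and between 4.03 and 6.04 in wild type (exact permutation p = 0.25). Ighg2c, Ighg2b, Ighg1 and Ighg3 (IgG subclasses) had differences of 6.19, 4.55, 3.94 and 3.42. Ighd was at 1.35 FPKM in the KO library, against 1.55, 1.74 and 0.77 FPKM in WT libraries 1, 2 and 3 (limma adjusted p = 0.985). Without WT library 1, 2 or 3, 2, 3 and 3 heavy chain constant genes were called, and with a pseudocount of 0.1 FPKM or no filter 1 and 3.

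Light chain constant FPKM over the sum of the heavy chain constant genes was 2.17 in the KO library, against 1.89, 1.58 and 1.31 in WT libraries 1, 2 and 3. The knockout ratio was above every WT library by less than the WT libraries differed among themselves, with a log2 difference of 0.46 and a wild type SD of 0.27 (exact permutation p = 0.50). Light chain constant genes held 1.45% of all FPKM in the KO library, against 0.0469%, 0.0335% and 0.0230% in WT libraries 1, 2 and 3. Among all immunoglobulin FPKM, the light chain constant share was 24.2% in the KO library, against 23.2%, 20.4% and 20.4% in WT libraries 1, 2 and 3.

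Among plasma cell and antibody secretion genes, 15 of 16 were tested, 5 were higher, 0 were lower and 10 did not pass, with a median difference of 0.39. Of all tested genes 0.64% were called higher. At an unadjusted p under 0.05, 9 plasma cell genes were higher and 1 was lower, where 1818 of all 16871 tested genes passed in either direction. Of the 15 genes, 13 lay above every WT library and 2 below, where 28% and 31.2% of all tested genes did. The summed level of the list was 514 FPKM in the KO library and between 146 and 177 FPKM in wild type. Jchain, which links IgA and IgM multimers, was at 310 FPKM in the KO library, against 10.7, 6.60 and 5.29 FPKM in WT libraries 1, 2 and 3 (difference 5.24; limma adjusted p = 0.0195), and the ratio of Igkc to Jchain, 13.4 in the KO library, was inside the wild type range of 11.2 to 13.5. Mzb1, an endoplasmic reticulum protein that helps assemble IgM, was at 17.6 FPKM in the KO library, against 1.20, 1.24 and 1.35 FPKM in WT libraries 1, 2 and 3, so that Igkc over Mzb1 was 236 in the KO library and between 45.7 and 99.6 in wild type (exact permutation p = 0.25). Pou2af1 (a B cell coactivator), Derl3 (a factor of protein disposal from the endoplasmic reticulum) and Tent5c (a poly(A) polymerase) had differences of 2.66, 1.79 and 1.06. Xbp1, Txndc5, Sdc1 and Creld2 had differences of 0.29, 0.23, -0.39 and 0.21 and did not pass. Without WT library 1, 2 or 3, 2, 2 and 1 plasma cell genes were called, and 2 with a pseudocount of 0.1 FPKM, with no filter or with the other immunoglobulin genes left out.

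Genes of B cells as a whole were mostly too low to be tested. Of 16 genes, 7 were tested and Cd79a alone was higher, with a median difference of 0.65, and the summed level was 25.1 FPKM in the KO library and between 10.4 and 13.1 FPKM in wild type. Cd79a, a signalling chain of the B cell receptor, was at 6.69 FPKM in the KO library, against 1.34, 1.13 and 0.83 FPKM in WT libraries 1, 2 and 3 (difference 1.88; limma adjusted p = 0.0422). Its partner Cd79b was at 5.37 FPKM in the KO library, against 2.80, 1.86 and 1.96 FPKM in WT libraries 1, 2 and 3 (limma adjusted p = 0.267), and Spib, Ebf1 and Cd22 had differences of 0.21, -0.31 and 0.16 and did not pass. Igkc over Cd79a was 621 in the KO library and between 74.4 and 89.2 in wild type (exact permutation p = 0.25). The call of Cd79a was lost when any 1 WT library was left out, with a pseudocount of 0.1 FPKM, with no filter and with the other immunoglobulin genes left out. At an unadjusted p under 0.05, 4 B cell genes were higher and 0 lower. The part that the number of B lineage cells has in the light chain levels was not tested.

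Genes of light chain rearrangement were low in all libraries. Of the 7 surrogate light chain and recombination genes, 5 had a row, with Igll1 and Rag1 at no more than 0.02 FPKM in any library. Vpreb3 alone was tested, at 1.79 FPKM in the KO library, against 0.11, 0.27 and 0 FPKM in WT libraries 1, 2 and 3, and did not pass. Its wild type mean lay under 0.5 FPKM, so it entered the test through the KO library. Its direction was thus fixed by the filter, and its p is not given. Of the germinal centre and class switch genes, 0 of 6 tested passed limma's test (1 of them, S1pr2, had an unadjusted p under 0.05, at 2.37 FPKM in the KO library, against 3.94, 3.57 and 3.38 FPKM in WT libraries 1, 2 and 3), and Mki67, a marker of dividing cells, was at 6.16 FPKM in the KO library, inside the wild type values of 8.95, 5.86 and 6.34 FPKM.

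Of the receptors and transporters of immunoglobulin 0 of 10 passed limma's test and 0 had an unadjusted p under 0.05, with a median difference of -0.03 and a sum of 241 FPKM in the KO library against 220 to 272 FPKM in wild type. Pigr, which carries IgA and IgM across epithelia, was at 25.7 FPKM in the KO library, inside the wild type values of 29.4, 23.9 and 30.7 FPKM. Fcgrt, the neonatal Fc receptor, Fcer1g, the shared Fc receptor chain, and Fcgr3, an IgG receptor, had differences of -0.01, -0.01 and -0.35. Of the T cell genes 0 of 10 passed and 2 had an unadjusted p under 0.05, as had 1818 of all 16871 tested genes. Of the 10 genes, 9 lay above every WT library and 0 below, where 28% and 31.2% of all tested genes did. Their sum was 62.4 FPKM in the KO library against 37.1 to 53.5 FPKM in wild type. Of the lymph node and follicle genes 0 of 5 tested passed (1 had an unadjusted p under 0.05), and Clu, Ccl21a, Ltb and Ccl19 had differences of -0.26, -0.69, 0.44 and 1.11. Cxcl13, the chemokine of B cell follicles, was at 1.69 FPKM in the KO library, against 0.36, 0.22 and 0.04 FPKM in WT libraries 1, 2 and 3 (limma adjusted p = 0.225). Whether lymphoid tissue contributes to the light chain levels was not tested.

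**Figure D4:**
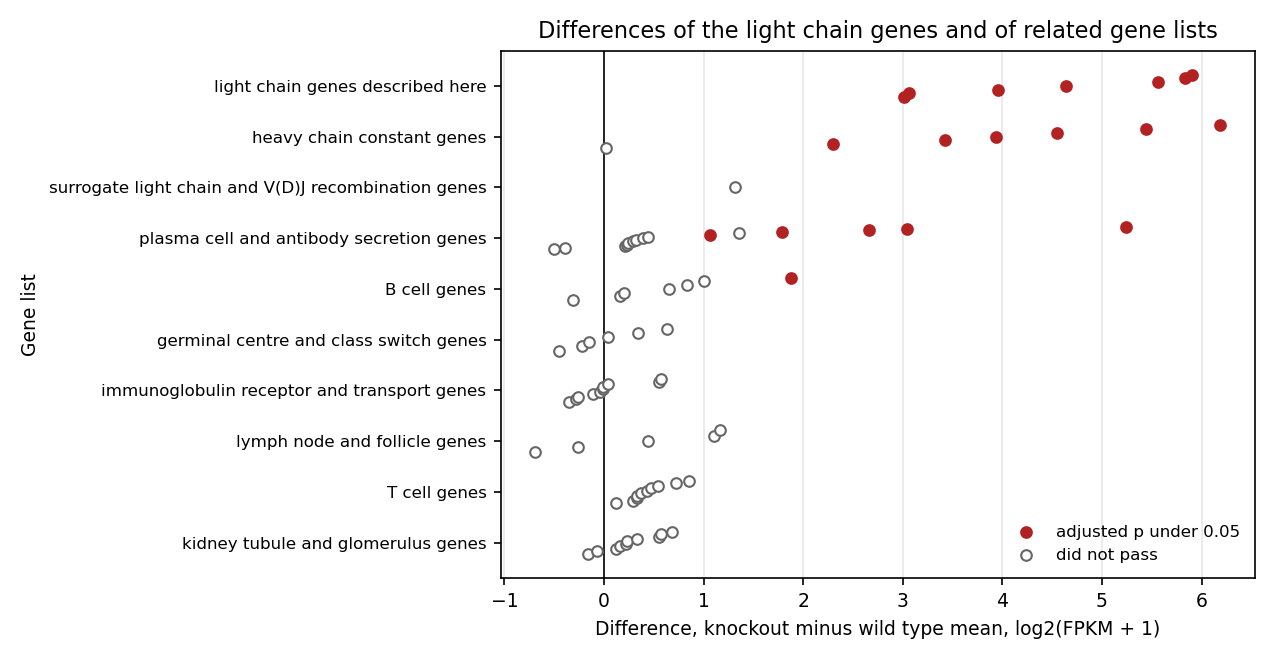
Difference of each tested gene, knockout library minus the wild type mean on the log2(FPKM + 1) scale (horizontal axis), for the light chain genes and for the related gene lists (rows), filled red where the limma adjusted p was under 0.05. The 7 light chain genes lie between 3.02 and 5.90, 6 of 7 tested heavy chain constant genes are filled (Iglv2, Iglv3, Ighg1 and Ighg3 entered the test through the KO library), and none of the receptor, T cell, lymph node or kidney genes is.

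By distance between profiles over the 4 libraries on the log2(FPKM + 1) scale, each centred on its wild type mean, the genes nearest to Igkc were Igkj2 (distance 0.17), Igkv1-110 (0.27), Igha (0.30), Ighj4 (0.31) and Jchain (0.38). The nearest to Iglc1 were Ighv9-3 (0.21), Ighv1-54 (0.27), Iglj1 (0.28), Ighj3 (0.33) and Igkv10-96 (0.34). Jchain was the nearest gene outside the immunoglobulin loci to both, at 0.38 from Igkc and 0.78 from Iglc1. Igha was at 1042 FPKM and Igkj2 at 654 FPKM in the KO library, against 35.1, 25.1 and 13.7 FPKM and 16.7, 12.2 and 9.54 FPKM in WT libraries 1, 2 and 3. These distances rest on 4 libraries and are a description.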

How the data were processed

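Messenger RNA of 4 libraries was used, 1 Cd248 KO and 3 wild type, of 6 samples in the labels. Groups and replicate numbers come from the sample titles. The design foresaw 3 libraries a group, or 1 KO against 3 WT where only those had columns; the second was made. Cutadapt 1.9, FastQC, HISAT2 2.0.4 and build mm10 are named, without roles, per the submitters' processing notes. Which program and annotation gave the FPKM was not found in the labels. The deposited FPKM values are rounded to 2 decimals, per the file headers and values. The authors' deposited fold change is a ratio of the knockout FPKM over the wild type mean, and the deposited log2 fold change is its log2. The p-values and q-values deposited by the authors come from an unnamed test. Low FPKM multiplied by transcript length showed no regular steps of whole reads, so depth is unknown and no counting intervals were computed.

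Values were analysed as log2(FPKM + 1). After a filter at a mean of 0.5 FPKM, 16871 genes were fitted with limma 3.58.1 in R 4.3.3 (trend option on, two-sided), with Benjamini-Hochberg adjustment over all of them and a threshold of 0.05. Residual spread is that between the WT libraries (2 residual and 2.32 prior degrees of freedom), so the KO library has no spread of its own and is taken to vary as they do. Ratios were tested by exact permutation of libraries, two-sided by the absolute difference. A 0 may stand for an estimate that failed, and such genes are described as listed at 0. Sequences were aligned with Biopython 1.88, and stretches of 50 bases were searched on both strands of all GENCODE M21 transcripts. The members and the 9 gene lists were chosen with earlier results of these data known. Named genes were the members, their 5 nearest profiles, and in each list those that passed and up to 4 with the highest mean that did not. Named outside this rule, after their values were seen, are Iglj2, Iglc4, Igkj3, Igkj4, Cxcl13, Igll1 and Rag1. The other 5 list genes, which have no row, were not analysed here.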

Additional observations from a re-analysis of the deposited data

How the results depend on the processing

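Against 122 genes called in all (108 higher, 14 lower) and 7 of 7 members, a pseudocount of 0.1 FPKM gave 39 (33 higher, 6 lower) and 4 members, no filter gave 205 (201 higher, 4 lower) and 4 members, and leaving the other immunoglobulin genes out gave 10 (8 higher, 2 lower) and 4 members. Libraries scaled to the same FPKM total gave 24 lower genes, and 22 with the total taken outside the immunoglobulin genes, with 7 members called in both. Scaling to the same total of all genes shifted the median of all genes to -0.11. Leaving out 1 WT library gave between 45 and 63 genes, 41 to 62 of them higher and 1 to 4 lower, and 2 to 5 members. Every member stayed higher under all 11 alternatives. Igkc, Iglc2, Iglv3, Iglv1 and Iglv2 lost their calls under 5, 5, 6, 2 and 2 of them, and the cause was not tested. The kappa to lambda log2 difference of -0.18 lay between -0.31 and -0.10 without 1 WT library, and with Iglc2 and Iglc3 as the lambda term it reversed to 1.13. The light to heavy log2 difference of 0.46 lay between 0.33 and 0.60 without 1 WT library. Called heavy chain constant genes fell to between 2 and 3 of 6, and called plasma cell genes to between 1 and 2 of 5, without 1 WT library, and Cd79a was then not called. No paired analysis was possible because the groups share only replicate number 1. The depth is unknown, the KO group is 1 library, and WT levels of Iglc2, Iglc3, Iglv2 and Iglv3 lay below 2 FPKM.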

Other observations

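The joining segments of the kappa locus, a few kilobases before Igkc, were all above every WT library. Igkj2 was at 654 FPKM in the KO library, against 16.7, 12.2 and 9.54 FPKM in WT libraries 1, 2 and 3 (difference 5.60; limma adjusted p = 0.0112), and Igkj3 at 13.9 FPKM, against 0.64, 0.23 and 0.17 FPKM. Igkj3 had a wild type mean under 0.5 FPKM and entered the test through the KO library, so its direction was fixed by the filter and its p is not given. Igkj1, Igkj4 and Igkj5 were at 450.0, 151 and 529 FPKM in the KO library and did not pass (limma adjusted p = 0.299, 0.254 and 0.131). Their WT values spread widely, from 1.23 to 17.8 FPKM for Igkj1, from 0.61 to 8.43 FPKM for Igkj4 and from 1.69 to 10.0 FPKM for Igkj5. Of 97 kappa variable genes, 75 were tested, of which 74 lay above every WT library and 0 below, where 28% and 31.2% of all tested genes did. Of these 75, 29 entered the test through the KO library. Of the other 46, 20 were called higher and 0 lower, where 0.64% and 0.083% of all tested genes were. Over all 97, 18 had a value of 0 in all WT libraries. The highest by mean were Igkv10-96, Igkv15-103 and Igkv1-110, at 392, 381 and 298 FPKM in the KO library, against WT ranges of 3.59 to 5.30, 1.52 to 7.78 and 4.44 to 7.20 FPKM.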
